A study of Homo sapiens with 6 samples.

Results

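RNA from K562 cells with RUNX1 R320* and from K562 cells with wild-type RUNX1 (WT) was compared for 42 genes of nucleolar ribosome assembly and RNA polymerase I (Pol I) transcription. K562 cells are a long-established BCR::ABL1-positive human leukaemia line of erythroid character. R320* names a stop codon in place of an arginine, toward the C-terminus of RUNX1, a transcription factor of blood cells. The members were chosen by name from known roles, with no threshold on their values, though earlier results of these data were known. All 42 were found among the 28395 genes of the normalized count table and among the 60131 rows of the RPKM table. Each genotype had 3 libraries. Cells of both genotypes grew in serum-containing medium. The labels do not say how the R320* change was made, whether each genotype is 1 clone, or whether libraries of a genotype came from separate cultures, so the p-values rest on the spread among these 6 libraries alone, and that spread may be technical.

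Ribosomes are built in the nucleolus. Pol I copies the ribosomal RNA (rRNA) precursor, small nucleolar RNA-protein particles (snoRNPs) guide its chemical modification, the small subunit processome folds and cleaves the part that forms the small subunit, and further factors assemble and export the large subunit. Many of these genes are known targets of the transcription factor MYC, and growing leukaemia cells depend on their output.

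RUNX1 itself had 5209, 5026 and 5261 normalized counts in R320* libraries, against 2969, 2922 and 2908 in WT libraries, and a level per gene does not show the stop codon. Reads assigned to genes numbered between 30064538 and 31306435 per R320* library and between 29058471 and 30595857 per WT library. The 9 K562 markers used (GATA1, TAL1, KLF1, TFRC, LMO2, HBG1, HBG2, HBE1 and HBZ) all passed the filter, with summed normalized counts of 152560 to 177207 in R320* and 128425 to 133199 in WT. HBG2 held the largest share of that sum, and the markers did not all move one way: 6 were called higher, HBZ was not called, and GATA1 and HBE1 were called lower (log2 fold changes of -0.55 and -0.47, limma adjusted p = 2.83e-09 and 4.23e-07). Of 10 markers of other cell types 4 passed the filter. The counts of all 10 summed to between 2828 and 3108 in R320* and between 3551 and 3681 in WT, CDH5 was at 0, and the collagen gene COL1A2 held most of the sum, with 2725 ± 108 in R320* and 3388 ± 41.7 in WT (SD, n = 3 each). The part of these differences in the results was not tested.

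Most of the 42 genes were modestly higher in R320* cells. Fold changes below are differences of mean log2(normalized count + 1), with WT subtracted from R320*. A gene was called when its limma adjusted p, over all 14299 genes tested, was below 0.05. All 42 members passed the filter on low values, 10 normalized counts or more in 3 or more libraries. Of them 33 were called higher and 3 lower, and 6 were not called. Among all genes tested 53.7% were called, 26.4% higher and 27.4% lower. The median log2 fold change was 0.34 over the members and 0.0062 over all genes tested, with a range from -0.29 to 0.89 over the members. The R320* libraries lay wholly above the WT libraries for 33 members and wholly below for 4, and overlapped for 5, where 59.8% of all genes tested did not overlap, 29.6% wholly above and 30.2% wholly below. Normalized counts are relative within a library, so a change in RNA per cell, or in the share of cells that hold it, cannot be told apart from these differences.

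**Figure D1:**
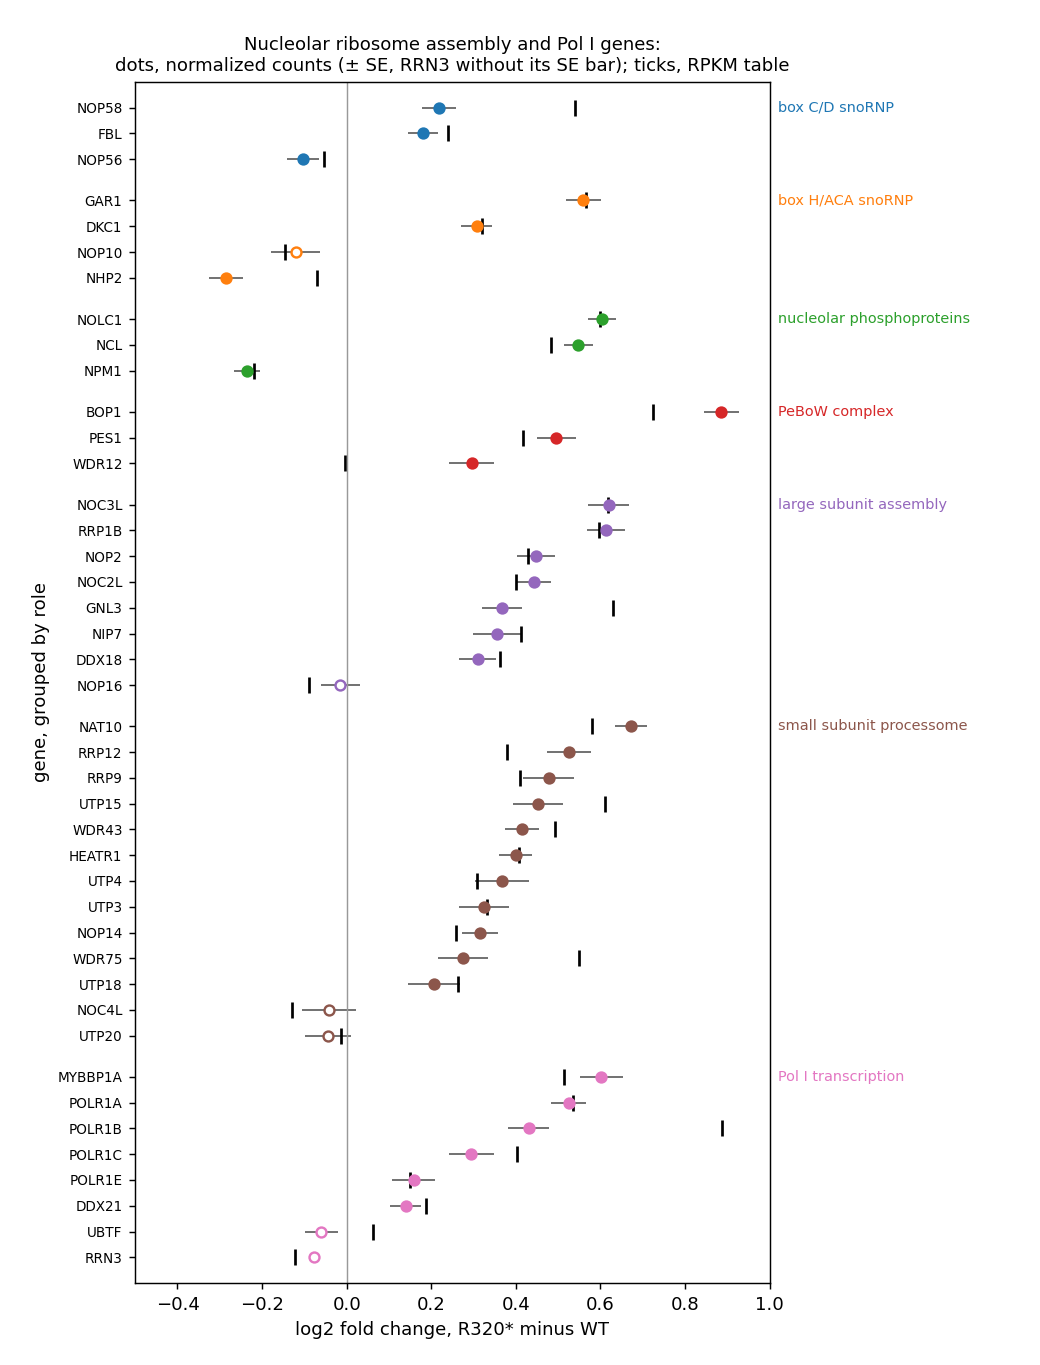
Log2 fold change (R320* minus WT) of the 42 members by role. Dots are normalized counts with their standard error, 3 libraries per genotype, open where not called, and black ticks are the RPKM table. Dots of 33 members lie to the right of 0. RRN3 is drawn without its standard error of 0.64.

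In the second deposited table, log2(RPKM + 0.1) gave 31 members called higher, 1 lower and 10 not called, where 31.9% of the 17769 genes tested were called, 15.1% higher and 16.8% lower. The median log2 fold change there was 0.40 over the members. Both tables come from the same libraries, so they are not independent measurements. Together the 42 genes took 0.906% to 0.917% of all assigned reads in R320* libraries and 0.771% to 0.782% in WT libraries. NPM1, the most abundant of them, was lower in R320*, and without it the shares were 0.702% to 0.718% in R320* and 0.54% to 0.549% in WT.

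MYC itself had 25127, 24966 and 24969.6 normalized counts in R320*, against 11179, 11127 and 11434 in WT (log2 fold change 1.15, limma adjusted p = 3.12e-14). MYC-MAX dimers bind the E-box CACGTG, and its letters were searched on both strands, which read alike, in RefSeq windows (GRCh38.p14) from 250 bases before to 50 bases after the start of 1 RefSeq transcript per gene. Windows were matched for 35 members and not for NOP58, NOLC1, BOP1, DDX18, RRP1B, RRP12 and POLR1E. In 31 of the 35 that start was the 5′ end of the gene's span, and it lay 2 bases inside the span for UTP15, 422 for UBTF, 733 for NPM1 and 15103 for PES1. The letters were present in 13 of 35 member windows (37.1%), in 1050 of 10256 windows of all tested protein-coding genes (10.2%), and in 25 of 95 windows of the other pathway genes described below (26.3%). In all 13 members a copy began within 40 bases of the start of the transcript used, which for PES1 is the one inside its span, a distance chosen after the positions were seen, as it did in 350 of the 1050 windows (33.3%). Among the 25 windows of other pathway genes the number was 18. A match of letters is a description, not a bound site. The members were chosen by role, and many genes of these roles were already known as MYC targets. Whether MYC has a part in the changes of the members was not tested.

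The stretches below show the E-box (capitals) and its flanks, 5′ to 3′ on the gene's strand, for the members with the largest rises among the 13 and for UTP20 and NOP10, which hold the letters and were not called. Counted from the start of the RefSeq window's transcript as position 1, the first base of the E-box lay at -15 in NAT10, 20 in NOC3L, 28 in MYBBP1A, 14 in PES1, -10 in UTP20 and -11 in NOP10, which has a second copy at -170.
NAT10 (chr11:34105602-34105631, + strand): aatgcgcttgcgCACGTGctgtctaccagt
NOC3L (chr10:94362903-94362932, - strand): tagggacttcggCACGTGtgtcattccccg
MYBBP1A (chr17:4555340-4555369, - strand): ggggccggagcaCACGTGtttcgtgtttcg
PES1 (chr22:30591880-30591909, - strand): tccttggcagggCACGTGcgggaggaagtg
UTP20 (chr12:101280083-101280112, + strand): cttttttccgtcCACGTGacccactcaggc
NOP10 (chr15:34343130-34343159, - strand): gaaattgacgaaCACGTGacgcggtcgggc
Each stretch was chosen for holding the E-box, so sharing it was fixed by that choice, and the flanks differed. The median log2 fold change was 0.41 over the 13 members with the E-box and 0.30 over the 22 without, and 11 of 13 and 15 of 22 were called higher. Over all tested protein-coding genes these medians were 0.086 and -0.0092, and 415 of 1050 and 2408 of 9206 were called higher. For the E-box variant CGCGTG the members went the other way. Their median was 0.28 over the 13 with CGCGTG and 0.38 over the 22 without, and 9 of 13 and 17 of 22 were called higher. Over the other pathway genes the medians were 0.24 with CGCGTG and 0.27 without. Over all tested protein-coding genes they were 0.024 and -0.0074, the same direction as for CACGTG, and 585 of 1864 and 2238 of 8392 were called higher. The whole 250 bases before the start of NAT10, the member with the largest rise among those with a window, hold 1 copy near their end.
NAT10 upstream (chr11:34105379-34105628, + strand): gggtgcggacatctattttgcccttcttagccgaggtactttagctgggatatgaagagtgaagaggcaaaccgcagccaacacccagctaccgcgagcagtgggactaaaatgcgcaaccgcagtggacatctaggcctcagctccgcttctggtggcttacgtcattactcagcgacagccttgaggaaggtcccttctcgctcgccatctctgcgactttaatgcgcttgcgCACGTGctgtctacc

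**Figure D2:**
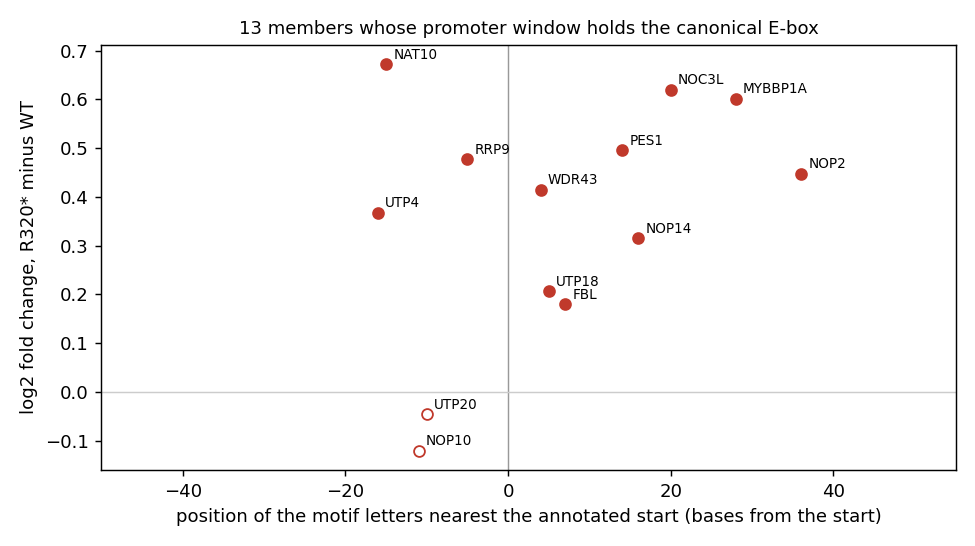
Position of the E-box nearest the start of the RefSeq transcript used (bases from that start, negative before it) and log2 fold change (R320* minus WT) of the 13 members that hold it. Filled points were called higher and open points were not called. The points span positions -16 to 36, and UTP20 and NOP10 lie below 0 on the vertical axis.

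Genes of Pol I transcription were mostly higher. Of 8 members 6 were called higher and 0 lower. POLR1A (chromosome 2, 86020216 to 86105886, GRCh38), the largest subunit of Pol I and part of its catalytic centre, had 6027, 6006 and 6189 normalized counts in R320*, against 4409, 4242 and 4019.6 in WT. All R320* libraries were above all WT libraries (log2 fold change 0.53, SE 0.04, limma adjusted p = 1.83e-08). POLR1B, its partner in that centre, rose by 0.43 on the log2 scale in counts (limma adjusted p = 1.37e-06) and by 0.89 in RPKM, with 43.1 ± 2.54 RPKM in R320* and 23.3 ± 1.85 RPKM in WT (SD, n = 3 each). POLR1C, a subunit that Pol I shares with Pol III, rose by 0.29 (limma adjusted p = 0.000213). POLR1E, which with its partner forms a Pol I subcomplex, had 2631, 2674 and 2891 in R320* and 2456, 2348 and 2538 in WT (log2 fold change 0.16, limma adjusted p = 0.014). POLR1E was not called in RPKM (limma adjusted p = 0.0808), nor in counts without the intensity trend (0.0747), without R320* replicate 3 (0.0631) and without WT replicate 2 (0.0738), over a range of alternatives from 0.00634 to 0.125.

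The members UBTF and RRN3, which help bring Pol I to its genes, were not called. They are not all the genes with a part in that step. Among the other Pol I genes of the wider set described below, TAF1A, TAF1B and TAF1D were called higher in counts. Their log2 fold changes were 0.31, 0.27 and 0.50 (limma adjusted p = 0.00714, 0.0294 and 1.42e-05). TAF1C was not called (0.0767), and TAF1B was not called in RPKM (0.0773). UBTF, which coats active rRNA genes, had 4481, 4639.8 and 4773 in R320* and 4914, 4769 and 4800.3 in WT. These libraries overlapped (log2 fold change -0.06, SE 0.04, limma adjusted p = 0.213), and the sign was positive in RPKM (0.061). RRN3, which bridges Pol I and its promoter factors, had only 29.4, 15.9 and 128 in R320* and 19.9, 30.9 and 115 in WT, and a difference was not detectable within this spread (log2 fold change -0.08, SE 0.64, limma adjusted p = 0.929). Its RPKM values were steadier, at 14.6 ± 0.664 in R320* and 15.9 ± 0.649 in WT (SD, n = 3 each, limma adjusted p = 0.209). RRN3 has 4 named pseudogenes, and the 3 in the count table held 256 normalized counts in R320* and 240.2 in WT on average, so its count is uncertain. MYBBP1A, a nucleolar MYB-binding protein that acts on rRNA transcription and processing, had 3368, 3748 and 3844 in R320*, against 2372, 2448 and 2391 in WT (log2 fold change 0.60, limma adjusted p = 4.15e-08). The helicase DDX21, which links Pol I transcription with rRNA processing, rose least, by 0.14 (limma adjusted p = 0.00384), and lost its call without the intensity trend (0.0652, in a range from 0.000447 to 0.0652).

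Core proteins of box C/D snoRNPs, which guide ribose methylation of rRNA, split. NOP58 (chromosome 2, 202265763 to 202303661) had 4365, 4511 and 4327 normalized counts in R320*, against 3812, 3827 and 3707 in WT (log2 fold change 0.22, SE 0.04, limma adjusted p = 0.000192), and its rise in RPKM was larger, at 0.54 (limma adjusted p = 0.000613). Its paralogous partner NOP56 (chromosome 20, 2652632 to 2658393) had 5256, 5059.5 and 5116 in R320*, against 5443, 5474 and 5656 in WT. The R320* libraries lay wholly above the WT libraries for NOP58 and wholly below for NOP56. The NOP56 fall was small, at -0.10 on the log2 scale (SE 0.04, limma adjusted p = 0.0293), and this p ranged from 0.0126 to 0.568 over the alternatives. The NOP56 call was lost in RPKM (0.494), with upper quartile scaling (0.055), without the intensity trend (0.0933), without R320* replicate 2 (0.102), without WT replicate 2 (0.0549) and without WT replicate 3 (0.102). Per length, the NOP56 to NOP58 ratio of RPKM was 1.16 ± 0.057 in R320* and 1.75 ± 0.0249 in WT (SD, n = 3 each), with no overlap between genotypes. The ratio of normalized counts was 1.17 ± 0.0428 in R320* and 1.46 ± 0.0557 in WT. It could not overlap, because the counts of both genes lay wholly apart in opposite directions. FBL, the methyltransferase of the particle, rose by 0.18 (limma adjusted p = 0.000514).

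Box H/ACA snoRNP proteins, which guide pseudouridylation and also bind telomerase RNA, also split. GAR1 (chromosome 4, 109815510 to 109824737) had 3459, 3512 and 3486 in R320*, against 2328, 2419.7 and 2345 in WT (log2 fold change 0.56, SE 0.04, limma adjusted p = 1.04e-08). DKC1, the pseudouridine synthase, had 6019, 5929.7 and 5968 in R320*, against 4913, 4845 and 4716 in WT (log2 fold change 0.31, limma adjusted p = 2.5e-06). NHP2 (chromosome 5, 178149463 to 178153885), an RNA-binding subunit, had 4652, 4781 and 4728 in R320*, against 5499, 5840.4 and 5934 in WT. The catalytic subunit and GAR1 were thus wholly above WT and NHP2 wholly below (log2 fold change of NHP2 -0.29, SE 0.04, limma adjusted p = 1.42e-05). In RPKM the NHP2 difference was not called, with 264 ± 20.1 RPKM in R320* and 277 ± 11.2 RPKM in WT (SD, n = 3 each, limma adjusted p = 0.438), and its span overlaps RMND5B. The smallest subunit, NOP10, had 1498, 1472 and 1486 in R320* and 1631, 1503 and 1717 in WT. It was wholly below WT but not called (log2 fold change -0.12, SE 0.06, limma adjusted p = 0.09), and was called lower without WT replicate 2 (0.0282, in a range from 0.0282 to 0.325).

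Of the abundant nucleolar phosphoproteins, 2 rose and NPM1 fell. NOLC1 (chromosome 10, 102152389 to 102163870), a snoRNP chaperone, had 12797, 13060.1 and 13113 in R320*, against 8489, 8711 and 8439.6 in WT (log2 fold change 0.60, SE 0.03, limma adjusted p = 2e-10). NCL, nucleolin, had 28759.7, 29463 and 29242 in R320*, against 19835, 20783 and 19244 in WT (log2 fold change 0.55, limma adjusted p = 1.05e-09). NPM1 (chromosome 5, 171387116 to 171410900), nucleophosmin, which shapes the granular part of the nucleolus and is often mutated in acute myeloid leukaemia, had 61464, 60049 and 58812 in R320*, against 70903, 71028 and 70331 in WT. Its R320* libraries were all below its WT libraries (log2 fold change -0.24, SE 0.03, limma adjusted p = 7.37e-06), and the fall was also called in RPKM (log2 fold change -0.22, limma adjusted p = 0.0179). The NPM1 to NCL ratio of RPKM was 7.63 ± 0.295 in R320* and 12.4 ± 0.314 in WT (SD, n = 3 each). It could not overlap, because in RPKM too NPM1 lay wholly below WT and NCL wholly above. RefSeq names 50 NPM1 pseudogenes, none of them in the count table, so how reads of near-identical copies were treated limits the NPM1 level.

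All 3 genes of the PeBoW complex, which acts in large subunit rRNA processing, were called higher in counts. BOP1 (chromosome 8, 144262045 to 144291438) had 10216, 10151 and 10696 in R320*, against 5613, 5325 and 5879 in WT, the largest change of the 42 (log2 fold change 0.89, SE 0.04, limma adjusted p = 2.47e-11). It lies in distal chromosome 8, where the median log2 fold change of its 50 nearest tested genes was 0.42, and its span overlaps SCX. The 50 nearest to MYC, on the same chromosome, had a median of 0.37. PES1, its partner, had 4152, 4580.2 and 4605 in R320*, against 3129.6, 3216 and 3106 in WT (log2 fold change 0.50, limma adjusted p = 1.36e-07). WDR12, the third subunit, had 2990.4, 2815 and 2604 in R320*, against 2193, 2335 and 2313 in WT (log2 fold change 0.30, SE 0.05, limma adjusted p = 0.000194). In RPKM the WDR12 genotypes overlapped, since R320* libraries held 98.9, 79.8 and 64.9 RPKM and WT libraries 81.3, 74.7 and 85.1 RPKM (log2 fold change -0.0043, limma adjusted p = 0.987). The genes of the complex changed by unequal amounts, and the BOP1 to PES1 ratio of RPKM was 2.18 ± 0.173 in R320* and 1.76 ± 0.0783 in WT (SD, n = 3 each), with no overlap.

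Among 8 other large subunit assembly factors 7 were called higher and 0 lower. NOC3L (chromosome 10, 94314907 to 94362939), a pre-ribosome export factor, had 2309.9, 2265 and 2253 in R320*, against 1529, 1469 and 1447 in WT (log2 fold change 0.62, SE 0.05, limma adjusted p = 1.96e-08). RRP1B, a nucleolar protein of rRNA processing, rose by 0.61, the rRNA methyltransferase NOP2 by 0.45 and NOC2L by 0.44. GNL3, the GTPase nucleostemin, rose by 0.37 (0.63 in RPKM), NIP7 by 0.36 and the helicase DDX18 by 0.31, and the limma adjusted p of these 6 did not exceed 5.33e-05. The exception was NOP16 (chromosome 5, 176383946 to 176388598), with 2183, 2148 and 2134 in R320* and 2134, 2254 and 2146 in WT. Its libraries overlapped (log2 fold change -0.01, SE 0.05, limma adjusted p = 0.811).

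Small subunit factors were called higher for 11 of 13 members and lower for 0. NAT10 (chromosome 11, 34105629 to 34146908), the acetyltransferase of small subunit rRNA, had 7246, 7122 and 7625 in R320*, against 4607, 4679.9 and 4508 in WT (log2 fold change 0.67, SE 0.04, limma adjusted p = 3.72e-10). RRP12, an export factor, rose by 0.53, and RRP9, which binds the U3 snoRNA, by 0.48. The processome proteins UTP15, WDR43, HEATR1, UTP4, UTP3, NOP14, WDR75 and UTP18 rose by 0.45, 0.41, 0.40, 0.37, 0.32, 0.32, 0.28 and 0.21 in that order, with limma adjusted p of 0.00972 or less. In RPKM the WDR75 rise was 0.55. UTP18, the weakest, was no longer called when WT replicate 2 was left out (0.066) or the intensity trend dropped (0.0684), and its p ranged from 0.00297 to 0.0684. The 2 members that were not called lie on chromosome 12. UTP20 (101280105 to 101386618), a large scaffold of the processome whose E-box is printed above, had 2232, 2131 and 2075 in R320* and 2235, 2348 and 2065 in WT. NOC4L (132144457 to 132152468) had 1235, 1317 and 1314 in R320* and 1435, 1228 and 1324 in WT. Both overlapped between genotypes (limma adjusted p = 0.512 for UTP20 and 0.61 for NOC4L).

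**Figure D3:**
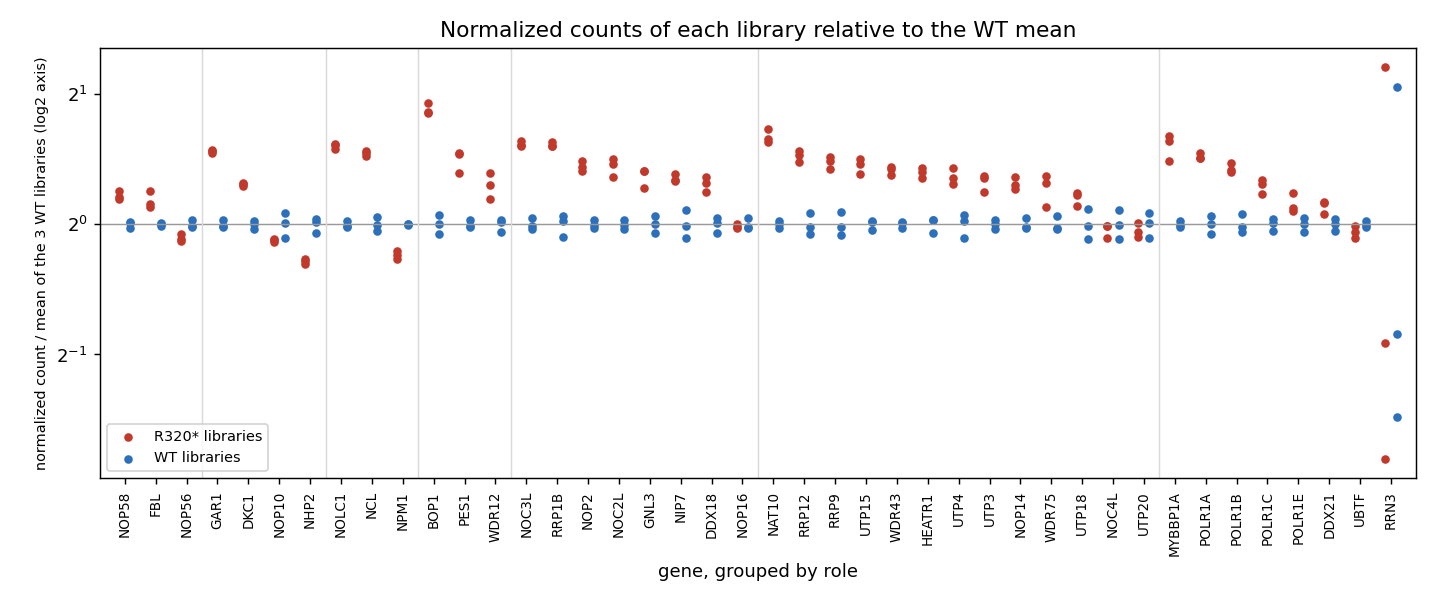
Normalized count of each of the 42 members in each library, divided by the mean of the 3 WT libraries (log2 axis). Red points are R320* libraries and blue points WT libraries. Red points lie wholly above blue for 33 genes and wholly below for NOP56, NHP2, NPM1 and NOP10, and RRN3 spreads widely in both genotypes.

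Several of the exceptions lay where most neighbouring genes were lower in R320*. Of the 6 members whose 50 nearest tested genes had a median below -0.2, only UTP3 was called higher, 2 were lower and 3 were not called. Of the 34 members with a neighbour median between -0.2 and 0.2, 30 were higher, 1 lower and 3 not called, and both members above 0.2, BOP1 and RRP1B, were higher. On chromosome 5 from NPM1 onward, 91 genes were tested and their median log2 fold change was -0.26, with 4 called higher and 59 lower (64.8%). The 3 members in that stretch, NPM1, NOP16 and NHP2, had log2 fold changes of -0.24, -0.01 and -0.29, while UTP15, before it on the same chromosome, rose by 0.45. The 546 tested genes before NPM1 had a similar median of -0.23, with 47.4% called lower, though the 50 nearest to UTP15 had a median of 0.11. On chromosome 12 from KRR1 onward, 289 genes were tested, of which 10 were called higher (3.5%) and 223 lower (77.2%), with a median of -0.55. The 474 tested genes before KRR1 had a median of -0.45. From KRR1 onward lie UTP20 and NOC4L, at -0.05 and -0.04, and NOP2, before KRR1 and with a neighbour median of -0.04, rose by 0.45. Relative to the 50 tested genes nearest to each, UTP20 was 0.60 higher and NOC4L 0.42 higher, while NPM1 and NHP2 differed from theirs by 0.016 and -0.043. The limit of 0.2 and these stretches were chosen after the values were seen, and whether position has a part in the exceptions was not tested. NOP56, NOP10, UBTF and RRN3 lie elsewhere, with neighbour medians of -0.14, -0.06, -0.0052 and 0.19.

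**Figure D4:**
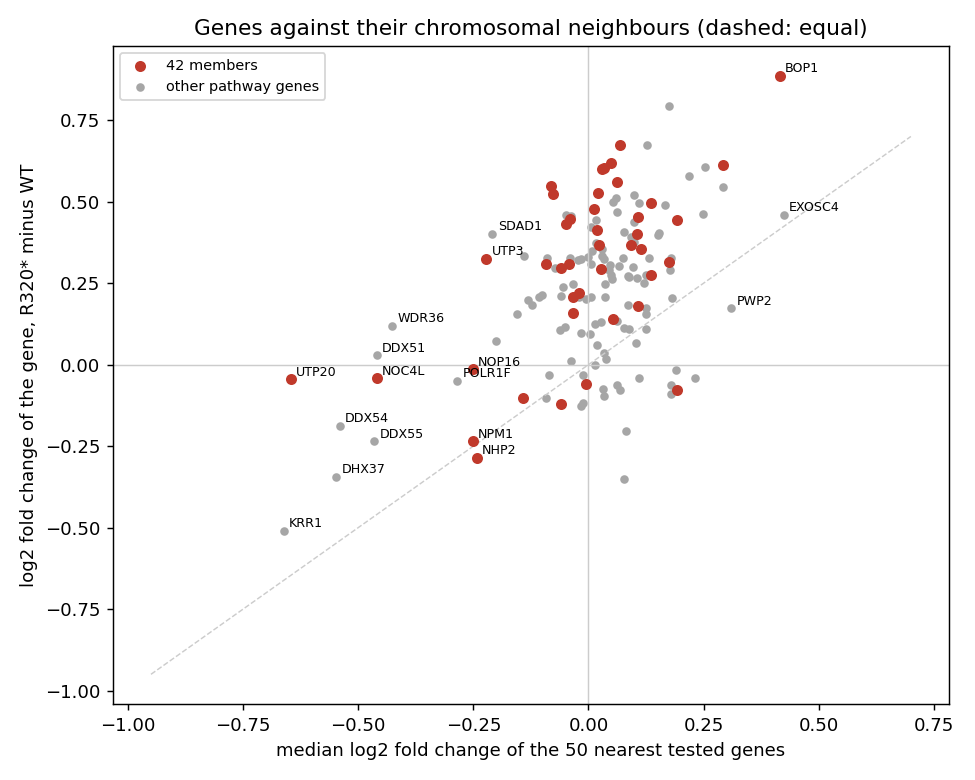
Log2 fold change (R320* minus WT) of each gene against the median log2 fold change of its 50 nearest tested genes on the chromosome. Red points are the 42 members, grey points the other pathway genes (POLR1H, at 1.78 but not called, is not drawn), and the dashed line marks equal values. UTP20 and NOC4L sit well to the left, near 0 on the vertical axis, and BOP1 sits at the upper right.

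A wider set of 117 genes of the same pathway was also mostly higher, with 114 tested, 75 called higher (65.8%), 6 lower and 33 not called, and a median log2 fold change of 0.25. Among all genes tested 26.4% were called higher and 27.4% lower. In RPKM fewer were called. There 114 genes, not all the same ones, were tested, with 61 called higher, 3 lower and 50 not called. Among all genes tested in RPKM 15.1% were called higher and 16.8% lower. The counts by list below are from normalized counts. Large subunit factors were called higher for 30 of 45 and lower for 3. LYAR, a nucleolar zinc finger protein, rose to 3778 ± 107 in R320*, against 2182 ± 60.5 in WT, and URB1 rose by 0.51. Small subunit factors were called higher for 24 of 34 and lower for 2, and in RPKM higher for 17 of 36 and lower for 1. The GTPase BMS1 rose to 4747 ± 194 in R320*, against 3177 ± 85.5 in WT, and TSR1 rose by 0.50. Subunits and helpers of the RNA exosome, which trims rRNA precursors, had 10 of 14 genes called higher and 0 lower, with EXOSC7 up by 0.44 and DIS3 by 0.42. snoRNP assembly genes were higher for 6 of 9, with RUVBL2 up by 0.32 and TGS1 by 0.32, and other Pol I genes for 4 of 9, with POLR1G up by 0.67 and TAF1D by 0.50. The 5S RNP list had 3 of 5 higher and 1 lower, where RPL11, a ribosomal protein, fell by 0.13 and RPF2 and RRS1 rose by 0.15 and 0.18. The RPL11 libraries overlapped between genotypes, and in RPKM neither RPL11 (log2 fold change -0.00076, limma adjusted p = 0.99) nor RRS1 (0.092, limma adjusted p = 0.291) was called. Each gene of the wider set named with a value in this paragraph or the next had a limma adjusted p in counts no greater than 0.0229. Means are ± SD with n = 3 each.

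The genes that fell in the wider set lay mostly on chromosome 12 (4 of 6). KRR1, a small subunit factor, fell to 529 ± 54.9 in R320*, against 752 ± 12.9 in WT (log2 fold change -0.51, limma adjusted p = 0.000107). The helicases DHX37, DDX55 and DDX54 fell by 0.34, 0.23 and 0.19. Of the 7 tested pathway genes on chromosome 12 from KRR1 onward, members included, 0 were called higher, 4 lower and 3 not called. All 3 before it (NOP2, EMG1 and DDX47) were called higher. The KRR1 fall was not seen in RPKM (log2 fold change -0.042, limma adjusted p = 0.688), and DDX55 was not called there (-0.22, limma adjusted p = 0.112).

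Per length, levels of the members spanned a wide range. NPM1 was highest, at 2469 ± 124 RPKM in R320* and 2876 ± 139 RPKM in WT (SD, n = 3 each). FBL came next, at 530.4 ± 9.67 RPKM in R320* and 449.7 ± 17.3 RPKM in WT, followed by NCL (324 ± 20.7 RPKM in R320* and 231 ± 5.41 RPKM in WT) and NHP2 (264 ± 20.1 RPKM in R320* and 277 ± 11.2 RPKM in WT). NCL was above NHP2 in R320* and below it in WT. UTP20 was lowest, at 7.97 ± 0.0644 RPKM in R320* and 8.06 ± 0.517 RPKM in WT, and RRN3 was next lowest.

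**Figure D5:**
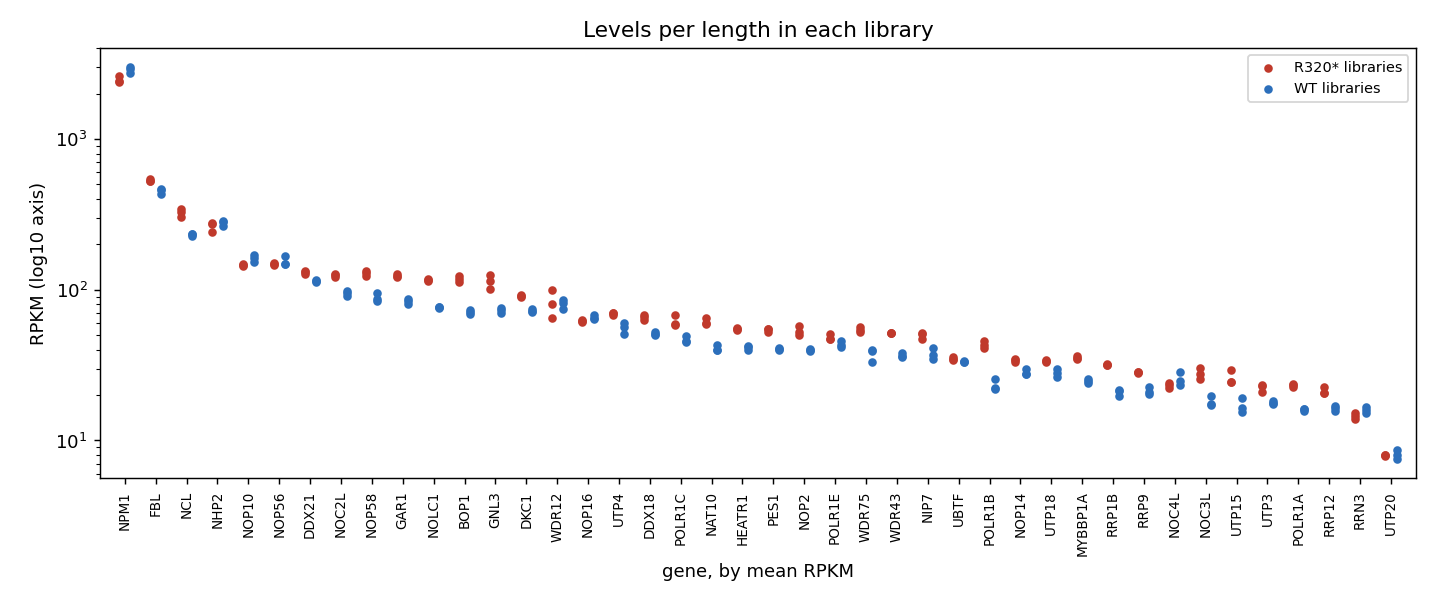
RPKM of each member in each library (log10 axis), ordered by mean level. Red points are R320* libraries and blue points WT libraries. NPM1 stands above the rest, at 2469 RPKM in R320* and 2876 RPKM in WT, and UTP20 is lowest, near 8 RPKM in both.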

How the data were processed

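The submitters' processing notes name the hg38 build and HISAT2, featureCounts, DESeq2 and Salmon. No version, setting or strand use, nor which of them made which table, was given in the sources used here. The deposited normalized counts are a signal unit, read counts that the authors divided by 1 factor per library (100% of values were whole multiples of 1 read within 1e-06). The deposited RPKM values are named so by the authors' table title. Column sums ran from 721735 to 786389, which a TPM scale lacking some genes would also give, so the 2 scales cannot be told apart.

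Entrez identifiers were matched to RefSeq symbols and positions of GRCh38.p14 (27745 of 28395). R320* was compared with WT by limma 3.58.1 (moderated variances with an intensity trend, R 4.3.3) on log2(normalized count + 1), 2-sided, with Benjamini-Hochberg adjustment over all 14299 genes tested. RPKM used a pseudocount of 0.1 and at least 0.5 in at least 3 libraries. Recovered reads were tested with edgeR 4.0.16 and DESeq2 1.42.0 as alternatives. The fits were also run on simulated data, in which far fewer genes changed than were called here. No result given here rests on that run. Motifs and neighbours were computed in Python 3.11.15. Members and lists were chosen with earlier results of these data known, and 1 cell line marker is not reported here. All 42 members are given, and full values are given, per role group, for the highest and lowest change and for members called lower or not called, plus partners compared with them. From other lists, up to 2 genes per direction with the smallest p are named, and the TAF1 genes are given beside UBTF and RRN3. Spans of 11 members (NHP2, BOP1, NOC2L, NOC3L, GNL3, NOP14, UTP18, HEATR1, POLR1C, RRN3 and MYBBP1A) overlap another tested gene, so their counts are less certain. The pseudocount makes changes of low genes smaller.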

Additional observations from a re-analysis of the deposited data

How the results depend on the processing

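Of the 36 called members 32 kept their direction and call in every alternative on the count table, and the exceptions were NOP56, UTP18, POLR1E and DDX21. Members called higher numbered 30 to 33 and members called lower 2 or 3 in those fits, edgeR and DESeq2 included (33 and 3 with both, which called 7660 and 7470 of all genes on the recovered reads). In each of the 3 RPKM fits 31 were higher and 1 lower. The median log2 fold change of 0.34 was 0.36 with a minimum of 50 normalized counts, 0.35 with upper quartile scaling, 0.35 with quantile normalization, 0.40 in each RPKM fit and 0.37 with each chromosome's median subtracted, moves that exceed its small spread between R320* libraries (SD 0.0048). That SD leaves out the spread of the WT libraries. The value with the minimum of 50 differs only because RRN3 does not pass that filter. The fold change of each remaining member stays as it was. With 1 library left out the median ranged from 0.32 to 0.36. This range covers the values with the minimum of 50, upper quartile scaling and quantile normalization, but not those of the RPKM fits or with each chromosome's median subtracted. The median was 0.34 with the median of 50 neighbours subtracted. Scaling moved the median of all genes to at most 0.044.

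Signs turned for WDR12 in RPKM (-0.0043, -0.0041 with a pseudocount of 1 and -0.0043 with no filter) and, among members called in no setting, for UBTF in RPKM (0.061, 0.060 and 0.061), NOP16 without WT replicate 2 (-0.029 to 0.010 with any 1 library left out) and NOC4L without WT replicate 1 (-0.097 to 0.015). RRN3 turned with quantile normalization (0.032), edgeR (0.058), DESeq2 (0.058), and without R320* replicate 1 (0.13), R320* replicate 2 (0.55) or WT replicate 3 (0.65), in a range from -0.91 to 0.65. The cause was not tested.

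Same-numbered libraries did not deviate together (correlations of 0.032, -0.0031 and -0.0033), so no pairing by replicate number was seen. The labels do not say whether same-numbered libraries were grown or prepared together, and these correlations cannot decide it. With the replicate number as a block, 33 members were higher, 3 lower and 7854 genes were called in all. The RRN3 counts ran from 15.9 to 128 over libraries of similar depth, while its RPKM values did not spread so, and the cause was not tested.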

Other observations

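Several members also host snoRNA genes. RefSeq places at least 1 snoRNA gene inside the span of 7 of the 42 members (16.7%) and of 424 of 12476 tested protein-coding genes (3.40%). NOP56 holds 5 (among them SNORD56 and SNORD57), GNL3 holds 5, NOP58 holds 4, NCL and WDR43 hold 3 each, DKC1 holds 2 and UTP20 holds 1. Of these 7 hosts 5 were called higher in R320*, while NOP56 was called lower and UTP20 was not called. Beside this, 33 of all 42 members and 26.4% of all genes tested were called higher, so the count says nothing particular about hosts.

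Among other motifs searched on both strands of the same promoter windows, the letters CCGGAA, as in ETS-family sites, were in 18 of 35 members (51.4%), 55 of 95 other pathway genes (57.9%) and 29.6% of tested protein-coding genes. CGCGTG, an E-box variant, was in 13 of 35 members (37.1%) and 18.2% of tested protein-coding genes. TGTGGT, the RUNX core letters, was in 3 of 35 members (8.57%) and 9.05% of tested protein-coding genes, and TATAAA in 1 of 35 (2.86%) and 5.70%.

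AATF, WDR46 and ZNHIT3, of the wider pathway lists, were almost without reads in the count table and were not tested there. In RPKM they were well expressed and not called: AATF had 47.8 ± 3.87 in R320* and 45.7 ± 1.15 in WT, WDR46 43.8 ± 2.10 in R320* and 41.8 ± 1.18 in WT, and ZNHIT3 55.4 ± 1.87 in R320* and 54.1 ± 2.17 in WT (SD, n = 3 each).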
